A study of Xenopus tropicalis with 18 samples.

Results

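Thyroid hormone receptor (TR) binding with hormone was compared between TRβ-knockout and wild-type tadpoles of Xenopus tropicalis, a frog. The comparison takes the 3 TRβKO and the 3 WT intestine libraries with T3, 6 of the 18 libraries of the series, over all 9867 regions in which reads had been counted. Both groups had received 10 nM T3 (triiodothyronine, the active hormone) for 18 h at stage 54, a stage before natural metamorphosis, and chromatin had been immunoprecipitated with an antibody against TR. The groups thus differ in genotype, TRβKO with T3 (n = 3) against WT with T3 (n = 3). The untreated TRβKO and WT libraries (n = 3 each) and the TRαKO libraries with T3 and untreated (n = 3 each) are used beside them. The labels state neither the knockout alleles and lines nor how many tadpoles made up a library, and the series text calls the replicates biological. ChIP reads carry no measure of gene expression, so the tissue could not be checked against marker transcripts, and the counts do not check the knockout itself.

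TRs are nuclear receptors that sit on thyroid hormone response elements, mostly as partners of retinoid X receptors. Without hormone they hold corepressors at their target genes, and T3 exchanges these for coactivators. In frogs T3 drives metamorphosis: the larval gut epithelium dies and an adult epithelium forms from new stem cells. Of the 2 receptor types TRα is present in tadpole tissues early, whereas the TRβ gene is itself switched on by T3, and an antibody against TR in TRβKO tissue has TRα left to precipitate.

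Depth was somewhat higher in TRβKO, without overlap. TRβKO libraries with T3 held 2.89, 3.28 and 2.76 M tags (M, mega) after duplicate filtering, against 2.49, 2.53 and 2.29 M in WT with T3. Redundant tags removed by that filter made up 15.9% ± 0.305 in TRβKO and 21.8% ± 0.584 in WT (SD, n = 3 each), without overlap. The counted regions took up 2.43 ± 0.0437 reads per 100 filtered tags in TRβKO against 2.90 ± 0.0620 in WT. All 3 TRβKO libraries lay below all 3 WT libraries (exact permutation test, two-sided, p = 0.1, the smallest that 3 against 3 libraries allow). Before the duplicate filter the shares were 2.04 ± 0.0297 and 2.27 ± 0.0519 reads per 100 tags. The sources used here do not say whether the deposited counts hold duplicate reads, and the part of duplicates in this difference was not tested. Levels below are in counts per M filtered tags (CPM), which leaves this difference between the groups in place.

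Binding at the receptor genes themselves did not pass the test in either direction. The gene thra, which encodes TRα, carried 4 counted regions on chromosome 10 (genes were placed by the positions of assembly UCB_Xtro_10.0, since no build is given in the sources used here). The strongest, at 9096138 to 9097271 within the gene, held 36.7, 53.1 and 35.2 CPM in the TRβKO libraries, against 46.6, 49.0 and 49.0 CPM in WT. The groups overlapped, and the log2 difference of TRβKO minus WT was -0.20 ± 0.17 (SE, edgeR adjusted p = 0.559). The other 3 thra regions differed by 0.07, 0.12 and 0.23 on the log2 scale (edgeR adjusted p = 0.920, 0.917 and 0.800).

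The gene thrb, which encodes TRβ and is the targeted gene, kept its signal in TRβKO at all 3 of its counted regions on chromosome 6. At 46932899 to 46933467 TRβKO held 32.6, 31.4 and 33.7 CPM, against 41.0, 39.9 and 39.8 CPM in WT. Here the groups did not overlap, with a log2 difference of -0.31 ± 0.18 (edgeR adjusted p = 0.370). At 46899379 to 46899872 the order was the opposite, with 18.0, 21.7 and 18.9 CPM in TRβKO against 14.5, 13.4 and 13.1 CPM in WT. That log2 difference was 0.51 ± 0.27 (edgeR adjusted p = 0.285). The third region, at 46698245 to 46698759, lay at -0.29 ± 0.27 (edgeR adjusted p = 0.604). Over the 7 regions of both receptor genes the signs were mixed, and none was called, where 4.23% of all tested regions were. DESeq2 with its own size factors called the second of these thrb regions higher (log2 difference 0.83, adjusted p = 0.0167).

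At thibz, klf9 and dot1l, genes known as direct T3 targets, no region was called, beside 4.23% of all tested regions, though some were under other settings. The region within thibz, a leucine zipper transcription factor gene induced by T3, lies on chromosome 3 at 140193300 to 140193863. It held 46.4, 44.2 and 35.2 CPM in TRβKO, against 53.0, 58.9 and 59.9 CPM in WT. Every TRβKO library lay below every WT library, at 41.9 ± 5.94 CPM and 57.3 ± 3.74 CPM, but the log2 difference of -0.45 ± 0.16 missed the threshold (edgeR adjusted p = 0.0986). With TMM scaling, explained below, it was -0.16. With nearly the same log2 difference it was called lower in a fit of the 6 libraries alone (edgeR adjusted p = 0.0107) and among regions with a mean of at least 10 reads (0.0338). The gene klf9, a zinc finger transcription factor of the early T3 response, had 2 counted regions on chromosome 1. The one 5634 bases outside the gene held 13.5, 16.2 and 18.1 CPM in TRβKO, against 13.7, 9.49 and 12.2 CPM in WT. Its log2 difference was 0.43 ± 0.28 (edgeR adjusted p = 0.420), and that of the region within klf9 was 0.59 ± 0.45 (edgeR adjusted p = 0.518). DESeq2 with its own size factors called the outer region higher (adjusted p = 0.0493). The gene dot1l, which encodes the methyltransferase of histone H3 lysine 79, held 20.1, 21.3 and 34.1 CPM in TRβKO, against 38.1, 36.4 and 32.8 CPM in WT. TRβKO replicate 3 lay within the WT range, and the difference was -0.51 ± 0.21 (edgeR adjusted p = 0.144). It was called lower with the 6 libraries alone (edgeR adjusted p = 0.0412) and without TRβKO replicate 3 (log2 difference -0.79, adjusted p = 0.0454). No counted region was assigned to mmp11, dio3, shh or hr.

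**Figure D1:**
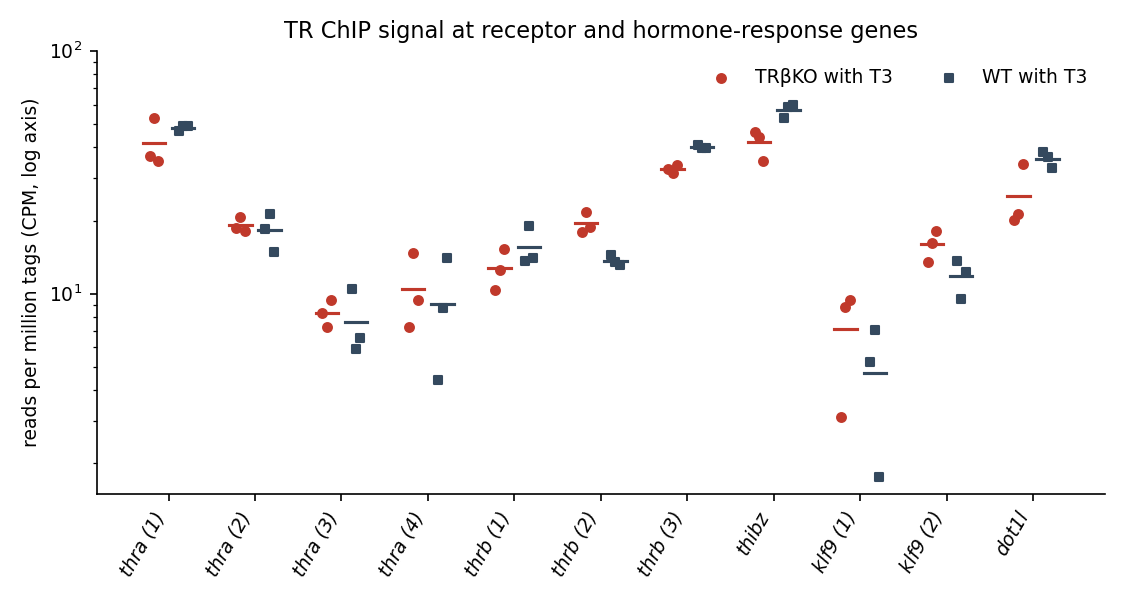
Counts per M filtered tags (CPM, log axis) in each TRβKO library with T3 (circles, left of each pair) and each WT library with T3 (squares, right), with bars at the group means, for the counted regions of thra, thrb, thibz, klf9 and dot1l, numbered along the chromosome. The pairs lie close together, and at thibz the 3 circles lie below the 3 squares.

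Most of the strongest regions were not called either, which holds for the tested regions in general. Of all tested, 4.23% were called. Among the 2336 of the highest mean level 1.46% were called higher and 7.96% lower. Of the 12 regions with the highest mean level among those on the chromosomes with a gene within 10 kb, counting each gene a single time, only that of LOC105945878 was called. It lies on chromosome 3 at 3731583 to 3732730 and held 37.8, 36.9 and 41.7 CPM in TRβKO, against 55.8, 62.9 and 60.4 CPM in WT. The log2 difference was -0.62 ± 0.16 (edgeR adjusted p = 0.0127). It was not called with TMM scaling (log2 difference -0.34, adjusted p = 0.288), nor without TRβKO replicate 2 or WT replicate 2 (adjusted p = 0.0516 to 0.0557). At nrep, known from vertebrate nerve and connective tissue, TRβKO held 49.6 ± 6.11 CPM and WT 48.3 ± 2.61 CPM, a log2 difference of 0.04 ± 0.16. The log2 difference at tmcc1 was -0.08 ± 0.18 (0.21 with TMM), at sgms1, which encodes a sphingomyelin synthase, 0.16 ± 0.18, and at foxo6, a forkhead transcription factor gene, 0.07 ± 0.19. At spidr, a gene of DNA repair by recombination, it was -0.10 ± 0.19 (0.18 with TMM). For these 5 regions the 95% interval of the difference stayed within 2-fold in both directions. The remaining strong regions lay at thibz, thra and thrb, at a leucine tRNA gene and at the genes MGC86483 and LOC101731736. The tRNA region held 122 ± 10.6 CPM in TRβKO and 143 ± 5.70 CPM in WT, and since tRNA genes occur in many like copies the origin of its reads is uncertain. The trnal-uag region was called lower with the 6 libraries alone (edgeR adjusted p = 0.0281). That of LOC101731736 was called higher with DESeq2's own size factors (log2 difference 0.46, adjusted p = 0.0272) and with scaling within distance bins, explained below (0.88, adjusted p = 8.99e-06).

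Over the whole table most differences were falls. Of the 9867 regions 9342 had enough reads to be tested. With a threshold of 0.05 on the Benjamini-Hochberg adjusted p of edgeR's quasi-likelihood test, 54 regions were called higher in TRβKO (0.578% of those tested) and 341 lower (3.65%), 4.23% in either direction. The median log2 difference of all tested regions was -0.30, so the typical region held less in TRβKO per filtered tag. With all tags before the duplicate filter as library size it was -0.20, and 55 rises and 254 falls were called. TMM scaling, which sets the bulk of regions equal between libraries, moved the median of -0.30 by 0.29 to -0.01. Under it 74 regions were called higher (0.792%) and 137 lower (1.47%), 2.26% in either direction. All 137 were among the 341, and all 54 higher calls were among the 74. Changes below are therefore given also with TMM wherever that ends the call. In 402 of the tested regions the 95% interval of the difference lay wholly within 2-fold in both directions. In the others it reached past 2-fold in at least 1 direction.

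**Figure D2:**
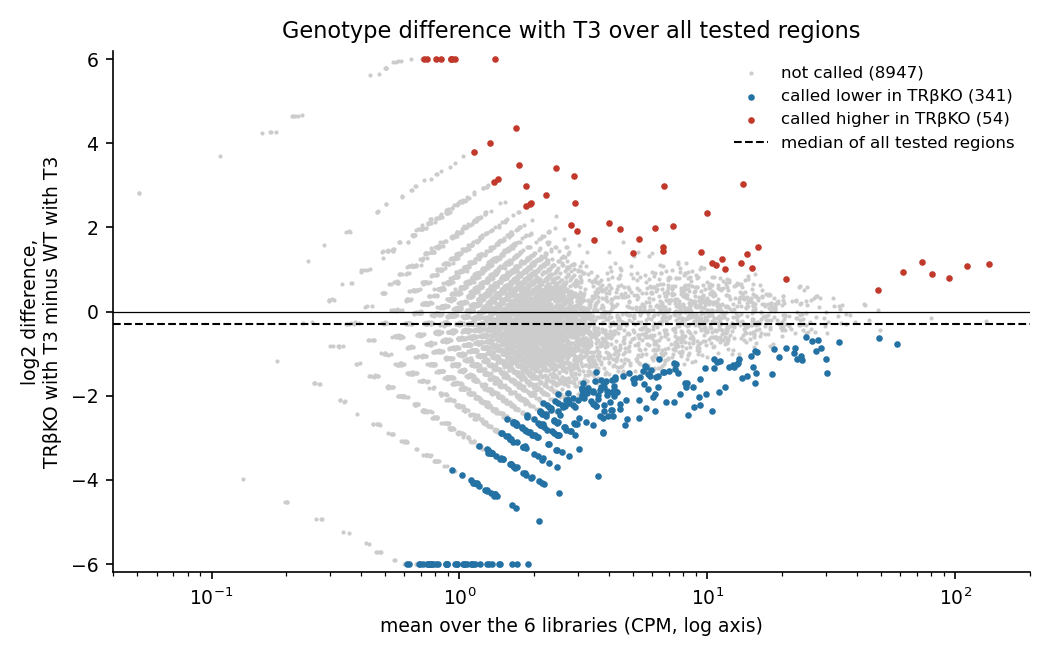
Log2 difference of TRβKO with T3 minus WT with T3 against the mean level over the 6 libraries (CPM, log axis) for each of the 9342 tested regions, with values beyond 6 in either direction drawn at that limit. The dashed line is the median of -0.30, and below 3 CPM only large differences were called.

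Of all tested regions, 462 had a WT level of at least 10 CPM, and of these 60 were called lower and 8 higher. This cut is on WT, the group in which falls are high, so it favours falls. With the cut on TRβKO instead, 11 rises lay within 10 kb of a gene. Of the 60 falls, 52 lay within 10 kb of a gene. The 12 with the largest change and no overlap between the groups were chosen after their values were seen. In uqcrc1, a core subunit of respiratory complex III, whose counted region also overlaps nisch, the region at 153062222 to 153062713 of chromosome 4 held 3.46, 3.35 and 0.726 CPM in TRβKO, against 14.5, 15.4 and 12.7 CPM in WT. It was 5.52-fold lower (log2 difference -2.46 ± 0.46, edgeR adjusted p = 0.0001). In cox10, an enzyme of heme A synthesis for cytochrome oxidase, TRβKO held 3.81, 5.79 and 6.17 CPM, against 17.3, 17 and 20.6 CPM in WT. This was a 3.46-fold fall (edgeR adjusted p = 0.000376).

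In pias3, a SUMO ligase known as an inhibitor of STAT3, TRβKO held 4.50, 3.05 and 1.45 CPM, against 11.2, 17.8 and 14.9 CPM in WT. The region fell 4.83-fold (edgeR adjusted p = 0.000111) and carried a peak in none of the 3 TRβKO libraries and in all 3 WT libraries. The same peak pattern held at wdr91, a gene of endosome maturation, with 5.20, 1.52 and 4.35 CPM in TRβKO against 16.9, 12.6 and 14.9 CPM in WT. It also held at pde3a, a phosphodiesterase that degrades cyclic AMP, with 4.16, 3.96 and 3.99 CPM in TRβKO against 16.1, 13 and 17.9 CPM in WT. The falls were 4.06-fold at wdr91 and 3.86-fold at pde3a (edgeR adjusted p = 0.000371 and 6.62e-06). Near nrip3, named for its interaction with nuclear receptors, TRβKO held 5.54, 5.49 and 2.90 CPM, against 14.1, 17.8 and 21.0 CPM in WT, a 3.73-fold fall (edgeR adjusted p = 9.02e-07). The smallest adjusted p of the 12 was 4.25e-09, at LOC108645164 with 3.46, 2.74 and 3.99 CPM in TRβKO against 18.1, 17.8 and 16.6 CPM in WT. The other 5 regions, at LOC101733232, a threonine tRNA gene, LOC101732065, jmjd7-pla2g4b and LOC105945734, were 3.26-fold to 5.12-fold lower. All 12 stayed called under TMM and without any 1 of the 6 libraries. The peak patterns and these fits rest on the reads by which the 12 were chosen, so they are no separate support.

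Falls of the largest relative size lay at weak regions. The 12 largest called falls at or above the median level were taken, 1 a gene, with a gene within 10 kb and no overlap. They had at most 3 reads in the TRβKO libraries together. In galnt18, a glycosyltransferase gene, TRβKO had 0 reads in all 3 libraries and WT 5, 18 and 5. With TRβKO set to a floor of 3 reads over the group, it was 11.4-fold lower per tag. The 95% counting interval from the reads as counted, which also covers the error of the WT count, reaches down to 8.67-fold. The 11.4-fold is thus no lower limit. In tbc1d10b, a GTPase activator of Rab proteins, TRβKO had 1, 0 and 0 reads and WT 9, 15 and 6, 36.6-fold lower per tag with a 95% counting interval of 6.09 to 1495. In tnnc2, a fast skeletal muscle troponin, TRβKO had 1, 0 and 1 reads and WT 9, 6 and 10, 15.3-fold lower (interval 3.81 to 133). The other 9 lay at adap2, arfgef3, klc4, phactr3, ints3 and 4 genes without a name beyond their LOC number, 12.6-fold to 21.4-fold lower by the same ratio. Intervals and floors cover counting error only. Of all 341 falls 112 had at most 3 reads in 1 of the groups. All 12 except ints3 (adjusted p = 0.0554) stayed called with TMM. Without TRβKO replicate 2 or WT replicate 1 the call at ints3 was also lost (adjusted p = 0.0936 to 0.130).

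Rises were fewer. Of the 54, 45 lay on the chromosomes, and 41 of these had all 3 TRβKO libraries above all 3 WT libraries, an order found in 4.47% of all tested regions. Of the 341 falls 305 had the opposite order, found in 13.5% of all tested regions. The order and the calls come from the same 6 libraries, so the order is no separate support for the calls. The rises named next had a TRβKO level of at least 10 CPM and no overlap, and were chosen after their values were seen. In lpin1, a phosphatidate phosphatase of lipid synthesis, the region at 139118868 to 139119343 of chromosome 5 held 11.1, 10.4 and 13.8 CPM in TRβKO, against 3.61, 3.16 and 1.75 CPM in WT. It rose 4.07-fold (log2 difference 2.03 ± 0.47, edgeR adjusted p = 0.00238), with a peak in all 3 TRβKO libraries and in no WT library. In dpp6, an auxiliary subunit of potassium channels, TRβKO held 10.7, 14.0 and 10.9 CPM, against 0.803, 3.56 and 0 CPM in WT. This was a 7.88-fold rise with the same peak pattern (edgeR adjusted p = 0.000110). Both peak patterns rest on the reads by which these rises were chosen, so they are no separate support. TRαKO with T3 carried a peak in all 3 libraries at dpp6 and in 0 at lpin1. Near epb41l3, a protein of the membrane skeleton, TRβKO held 23.9, 21.3 and 26.1 CPM, against 5.62, 8.70 and 10.5 CPM in WT. It rose 2.88-fold (edgeR adjusted p = 0.000527). Near phlpp2, a phosphatase that acts on Akt, TRβKO held 16.3, 19.8 and 26.5 CPM, against 7.23, 7.91 and 9.19 CPM in WT, a 2.57-fold rise (edgeR adjusted p = 0.00393) that was lost without TRβKO replicate 3 (adjusted p = 0.0565).

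The region near LOC116407329 was another of these rises. It held 23.9, 23.8 and 26.9 CPM in TRβKO with T3, against 0, 5.53 and 3.50 CPM in WT with T3 (edgeR adjusted p = 1.92e-10). Without hormone the genotypes differed there as well, with 31.5 CPM in TRβKO and 1.41 CPM in WT on average. TRαKO with T3 held 0.800 CPM, so of these 5 groups only both TRβKO groups exceeded 20 CPM. An untreated call in the same direction was not particular to this region. That near phlpp2 was called higher untreated (edgeR adjusted p = 0.00820), those of lpin1, dpp6 and epb41l3 were not. Of the strong falls, the threonine tRNA gene, LOC101732065, jmjd7-pla2g4b and LOC105945734 were called lower untreated (edgeR adjusted p = 1.85e-07, 0.000173, 1.86e-05 and 0.00938). The other strong falls named above were not.

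Other large rises lay at weaker regions. The gene bicdl1, an adaptor of the dynein motor, had 8, 21 and 12 reads in TRβKO against 2, 1 and 0 in WT, a ratio per tag of 11.2 (95% counting interval 3.57 to 56.5). In pip5k1b, a lipid kinase, TRβKO had 17, 17 and 13 reads and WT 2, 2 and 0, a 9.36-fold rise (edgeR adjusted p = 0.00388). In slc25a16, a mitochondrial carrier, TRβKO held 8.31, 10.4 and 10.9 CPM and WT 2.81, 3.16 and 1.31 CPM, a 4-fold rise that was lost without TRβKO replicate 2, TRβKO replicate 3 or WT replicate 3 (adjusted p = 0.0709 to 0.0917). In 6 further rises all 3 TRβKO libraries lay above all 3 WT libraries, a condition of naming them, but the call was lost on leaving out any of several libraries. At tcf4, an E protein transcription factor, with a ratio per tag of 11.9 on 2 WT reads (95% counting interval 3.00 to 103), it was lost without TRβKO replicate 2 or WT replicate 2 or 3 (adjusted p = 0.0541 to 0.0704). At neurl4, with a ratio of 8.19 on 3 WT reads (interval 2.55 to 41.9), it was lost without TRβKO replicate 2 or 3 or WT replicate 1 or 3 (adjusted p = 0.0786 to 0.131), and at edem1, a factor of endoplasmic reticulum protein breakdown that was 5.96-fold higher, without TRβKO replicate 2 or WT replicate 1 or 2 (adjusted p = 0.0557 to 0.0918). The 5.73-fold rise at fam184a was lost without TRβKO replicate 1 or 2 or WT replicate 2 or 3 (adjusted p = 0.0624 to 0.185). The 4.14-fold rise at tom1l1 was lost on leaving out any library but WT replicate 2 (adjusted p = 0.0533 to 0.198). At pex11a, a factor of peroxisome division that was 3.92-fold higher, leaving out TRβKO replicate 2 or 3 or WT replicate 1 or 2 ended the call (adjusted p = 0.103 to 0.179).

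**Figure D3:**
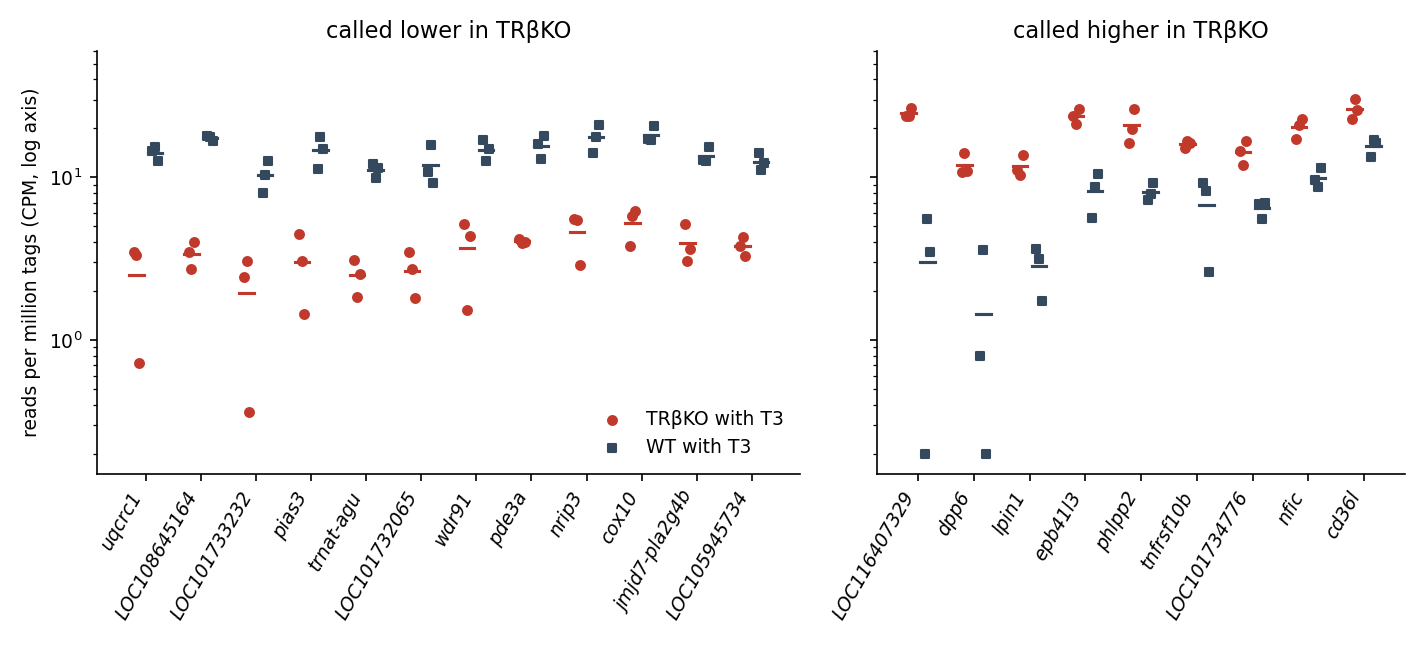
CPM (log axis) in each TRβKO library with T3 (circles, left of each pair) and each WT library with T3 (squares, right), with bars at the group means, for the 12 strong falls and the 9 strong rises with the largest change, values below 0.2 drawn at 0.2. The groups do not overlap at any of them, which was a condition of the choice. Another was a mean of at least 10 CPM, in WT for the falls and in TRβKO for the rises.

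All 7 counted regions of the mitochondrial genome were called higher in TRβKO, 0.52 to 1.18 on the log2 scale, and stayed above 0 with TMM. Mitochondrial reads came to 3.43, 3.17 and 3.35 per 100 reads in regions in TRβKO with T3, against 1.40, 1.40 and 1.45 in WT with T3. Without hormone the averages were 1.25 ± 0.122 and 0.778 ± 0.0592. The groups did not overlap in either condition. The part of this difference in the other results was not tested. Without the mitochondrion and the scaffolds 39 rises and 323 falls were called.

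Regions of 19 gene lists were then counted, ordered by the role of the genes in the hormone response. All lists together had 319 tested regions at 196 genes, of which 5 were called higher and 11 lower, 1.57% and 3.45% beside 0.578% and 3.65% of all tested regions. With TMM 6 were called higher and 3 lower, and with scaling within distance bins, explained below, 4 and 2. Their median log2 difference was -0.22 (0.06 with TMM), beside -0.30 over all tested regions (-0.01 with TMM). The counts of single lists below stand beside the shares of all tested regions, 0.578% and 3.65%. Of 28 regions of direct T3 response genes 1 rose and 1 fell, with a list median of -0.28. The rise lay near nfic, a transcription factor of the nuclear factor I family, at 17.3, 21.0 and 22.9 CPM in TRβKO against 9.64, 8.70 and 11.4 CPM in WT. It amounted to 2.06-fold (edgeR adjusted p = 0.0189) and was lost without TRβKO replicate 2 or 3 or WT replicate 1 or 2 (adjusted p = 0.0538 to 0.0802). The fall lay in kdm6b, a demethylase of histone H3 lysine 27.

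In kdm6b TRβKO held 24.2, 19.5 and 17.8 CPM, against 34.5, 43.1 and 33.7 CPM in WT. The groups did not overlap, and the fall was 1.81-fold (log2 difference -0.86 ± 0.20, edgeR adjusted p = 0.00473). With TMM the difference was -0.57 and not called (adjusted p = 0.121), and the call was also lost without WT replicate 2 (adjusted p = 0.0543). Among 51 regions of coregulators and chromatin enzymes, the only other call was in tbl1x, a subunit of the NCoR and SMRT corepressor complexes. There TRβKO held 5.54, 3.05 and 3.63 CPM, against 11.2, 11.5 and 10.9 CPM in WT. The fall was 2.76-fold (edgeR adjusted p = 0.0208), not called with TMM (adjusted p = 0.0989) or without TRβKO replicate 2 or 3 (adjusted p = 0.0684 to 0.1).

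Of 24 nuclear receptor regions 1 fell, in rara, the retinoic acid receptor α, which was also the single call among 9 regions of the retinoid pathway. It held 21.1, 25.6 and 17.8 CPM in TRβKO, against 34.5, 38.3 and 31.1 CPM in WT (edgeR adjusted p = 0.0484). The call was not kept with TMM (adjusted p = 0.375) and was lost on leaving out any library but TRβKO replicate 2 (adjusted p = 0.0601 to 0.180). None of 10 regions of hormone receptors, transport and metabolism was called (list median 0.17), beside 4.23% of all tested regions. In the list of other transcription factors of the T3 response 1 of 46 regions rose, the same nfic region, and 2 fell. These were at sox6 and near zbtb34. In sox6 TRβKO had 0 reads and WT 4, 2 and 9, which is 6.11-fold lower against the same floor (95% counting limit 4.38-fold). The sox6 call was lost without WT replicate 3 (adjusted p = 0.0657). The zbtb34 call was lost with TMM (adjusted p = 0.347) and on leaving out any of the 6 libraries (adjusted p = 0.0607 to 0.121).

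The circadian clock list and the list of sugar and lipid metabolism each held 1 rise and 1 fall. Among 10 clock regions that 181 bases outside ciart, a repressor of the clock, fell. It held 16.3, 14.3 and 14.5 CPM in TRβKO, against 27.7, 30.8 and 30.6 CPM in WT. The fall was 1.98-fold (edgeR adjusted p = 0.00436) and not called with TMM (adjusted p = 0.0908). The clock rise lay 3084 bases outside the clock activator arntl, with btbd10 also within 10 kb. This region held 6.93, 4.57 and 4.72 CPM in TRβKO against 2.81, 1.98 and 0 CPM in WT (edgeR adjusted p = 0.0343). Its call was lost without TRβKO replicate 1 or WT replicate 2 or 3 (adjusted p = 0.0595 to 0.183). Nor was it kept with the 6 libraries alone or with a replicate block. Of 22 regions of sugar and lipid metabolism lpin1 rose, as given above, and aldoa fell. In aldoa, an aldolase of glycolysis, TRβKO held 5.20, 5.18 and 10.5 CPM, against 17.3, 24.9 and 19.7 CPM in WT, a 2.99-fold fall (edgeR adjusted p = 0.00119).

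In apoptosis and growth arrest 1 of 14 regions rose, at tnfrsf10b, a death receptor for the ligand TRAIL, with 15.2, 16.8 and 16.3 CPM in TRβKO against 9.23, 8.30 and 2.62 CPM in WT. This 2.37-fold rise (edgeR adjusted p = 0.0177) was lost without TRβKO replicate 2 or WT replicate 3 (adjusted p = 0.0563 to 0.138). In the cell cycle list 1 of 6 rose, at rb1, the retinoblastoma protein, on 2, 9 and 12 reads in TRβKO and 0, 2 and 0 in WT, where the groups overlapped. It was lost without TRβKO replicate 2 or 3 or WT replicate 1 or 3 (adjusted p = 0.0867 to 0.176). The hyaluronan receptor cd44 gave the only call of the lists of matrix remodelling (20 regions) and of intestinal stem and progenitor cells (10 regions), a fall to 4, 1 and 0 reads in TRβKO, against 13, 6 and 13 in WT (edgeR adjusted p = 0.00574).

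The transcription factor gata5 gave the only call among 17 regions of differentiated gut epithelium, with 5.20, 7.01 and 4.35 CPM in TRβKO against 12.4, 15.4 and 14.4 CPM in WT. This 2.53-fold fall (edgeR adjusted p = 0.0204) was not called with TMM (adjusted p = 0.111) or without TRβKO replicate 1 or 3 or WT replicate 2 or 3 (adjusted p = 0.0507 to 0.0847). Of 31 WNT regions 1 fell, at wnt11, with 2, 3 and 0 reads in TRβKO against 1, 17 and 9 in WT. The groups overlapped there, and the call was lost with TMM (adjusted p = 0.0858) and without TRβKO replicate 1 or 3 or WT replicate 2 or 3 (adjusted p = 0.0559 to 0.259). No region was called among 26 of insulin signalling, PI3 kinase and autophagy, 9 of hedgehog and BMP, 8 of mesenchyme, muscle and nerve, and 3 of Notch. Of all tested regions 4.23% were called, and at that share short lists hold few calls or none. In ulk1, the kinase that starts autophagy, TRβKO held 27.7, 28.1 and 29.8 CPM, against 16.9, 19 and 20.6 CPM in WT. It was not called (edgeR adjusted p = 0.120), but with TMM it was (log2 difference 0.89, adjusted p = 0.0212), and also with DESeq2's own size factors (0.00129) and the 6 libraries alone (0.0204).

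Markers of blood, immune and endothelial cells, which a gut sample holds among others, had 24 tested regions at 7 genes. Receptor binding at a gene does not show that the gene is expressed, so these regions name no cell type. Their median was -1.01, the lowest of the lists, and -0.73 with TMM. With scaling within distance bins it was -0.29, above the -0.52 of the retinoid list and below the 0.02 of all tested regions. Only the endothelial factor sox18 was called, with 1.04, 5.18 and 1.09 CPM in TRβKO against 10.4, 9.88 and 7 CPM in WT. Its call was lost with TMM (adjusted p = 0.0950) and without TRβKO replicate 1 or 3 or WT replicate 1 or 2 (adjusted p = 0.0661 to 0.124). Of these 24 regions 20 lay within 5 Mb of a chromosome end, where the differences of all tested regions were lower too, as given below. In bulk tissue fewer cells of a type, less binding per cell and this position cannot be told apart.

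**Figure D4:**
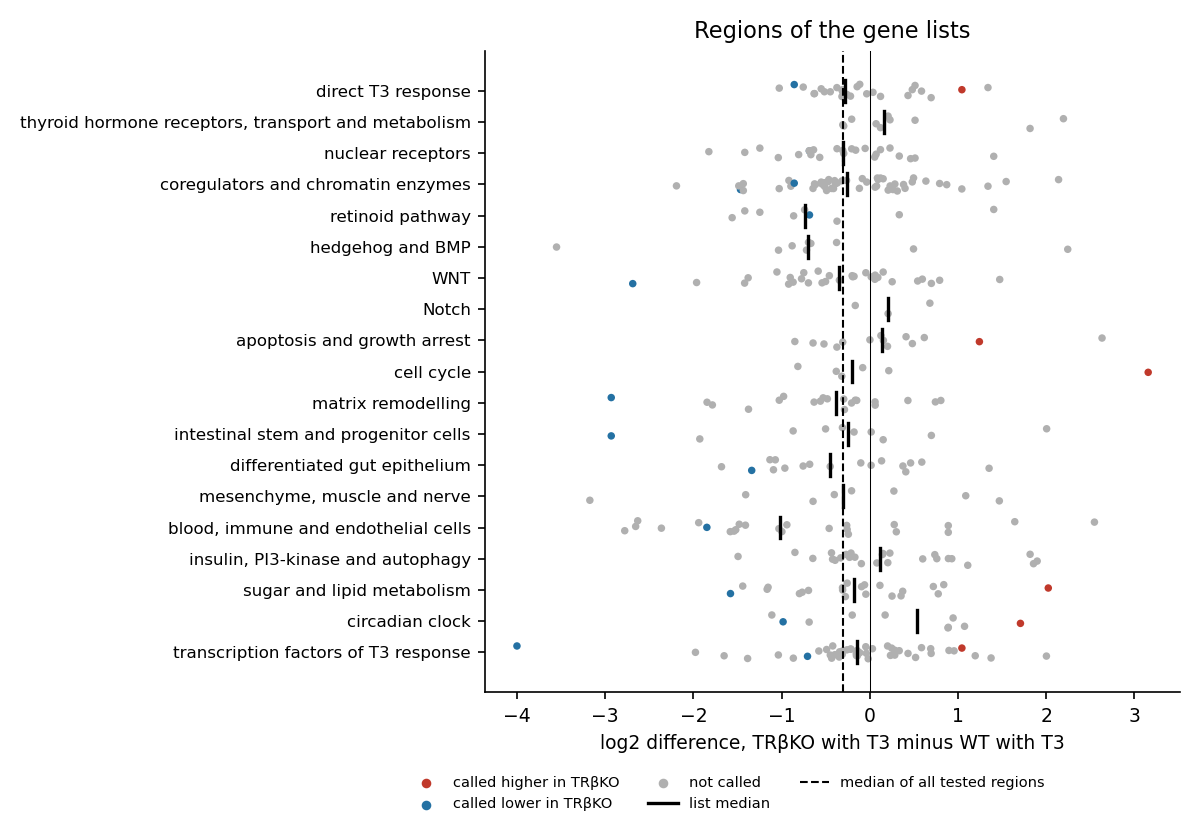
Log2 difference of TRβKO with T3 minus WT with T3 for every tested region of the 19 gene lists, called regions in colour, thick bars at the list medians and a dashed line at the median of all tested regions (-0.30). Values beyond 4 are drawn at 4, which holds for sox6, and most regions of every list are not called.

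The genotype difference varied with position along the chromosome, a pattern chosen after the values were seen. Within 2 Mb of a chromosome end (taken as the last counted region) the median log2 difference over 1104 tested regions was -0.93. From 2 to 5 Mb it was -0.66, from 5 to 10 Mb -0.47, from 10 to 20 Mb -0.29, from 20 to 40 Mb -0.13 and farther in -0.05. In the outermost bin 6.70% of regions were called lower and 0.0906% higher, while over 40 Mb from an end the shares were 1.63% and 0.773%. Of the 337 falls on the chromosomes 151, or 44.8%, lay within 5 Mb of an end, where 24.8% of all tested regions lie. Of the 45 rises on the chromosomes 3 did.

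The same order was seen without hormone, in other libraries. The untreated medians of TRβKO minus WT, in order from the ends inwards, were -0.78, -0.51, -0.36, -0.10, 0.13 and 0.21. In the libraries with T3, reads within 5 Mb of an end made up 17.1, 17.3 and 16.8% of reads in chromosomal regions in TRβKO, against 23.0, 23.2 and 23.0% in WT. Untreated libraries held 22.2% ± 0.402 in TRβKO and 28.8% ± 0.464 in WT. TRαKO held 23.1% ± 1.11 with T3 and 24.2% ± 0.182 untreated, so untreated TRαKO also lay below untreated WT. By chromosome, the shortest, 10, had the lowest median at -0.79, with 49 of 591 tested regions called lower, and the longest, 1, had the highest at -0.04, with 14 of 1195.

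Among strong regions, with a mean of at least 10 CPM, the medians with T3 were -0.31 within 2 Mb (16 regions), -0.52 from 2 to 5 Mb (40 regions), -0.38 from 5 to 10 Mb, -0.01 from 10 to 20 Mb, -0.01 from 20 to 40 Mb and 0.07 farther in (161 regions). The lowest of these was thus not the outermost. With TMM they were -0.03, -0.23, -0.09, 0.28, 0.28 and 0.36 in the same order. Redundant tags made up 12% in TRβKO and 2.50% in WT without T3, and the part of redundancy in the pattern was not tested. Base composition was not tested, since no genome was used here. When libraries were scaled by TMM within each distance bin, an alternative added after the data were seen, 63 regions were called higher (0.674%) and 96 lower (1.03%). All 96 were among the 341 and 49 of the 63 among the 54. The 12 strong falls and the first 4 rises named above stayed called, whereas kdm6b (adjusted p = 0.322), ciart (0.126), aldoa (0.0975), gata5 (0.315), sox18 (0.317), tbl1x (0.0681), rara (0.649), wnt11 (0.121), zbtb34 (0.830) and LOC105945878 (0.917) did not. Nor did the weak falls klc4 (0.0508) and ints3 (0.0985) and the rises fam184a (0.0583) and rb1 (0.0534).

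**Figure D5:**
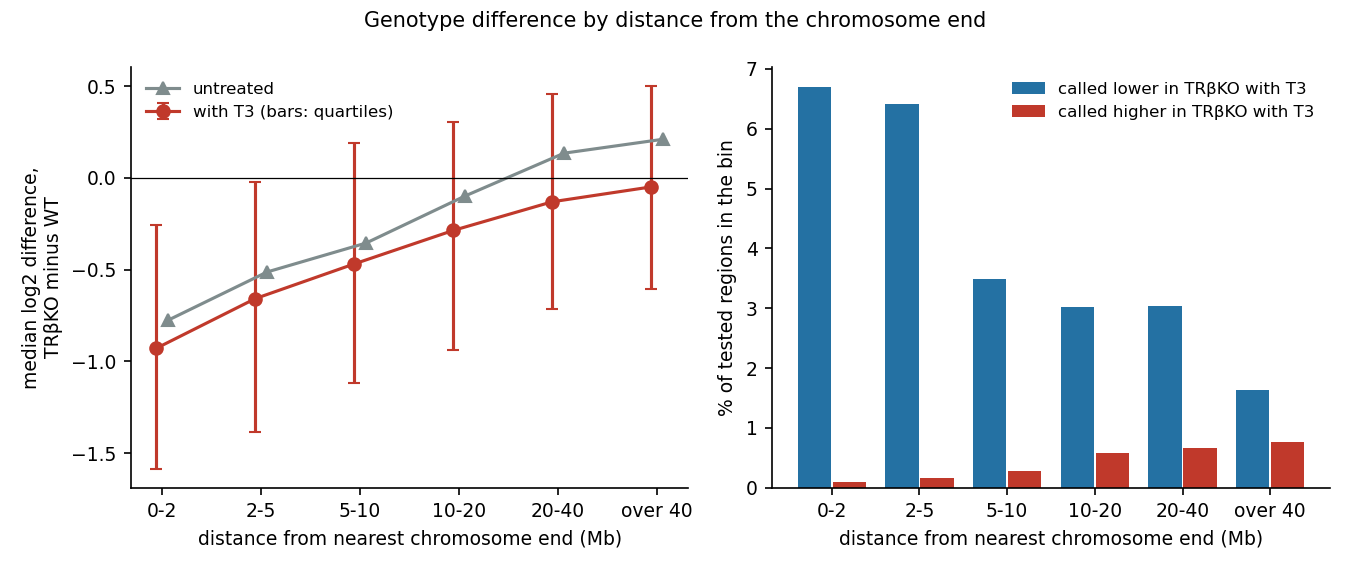
Left, median log2 difference of TRβKO minus WT by distance from the nearest chromosome end in Mb, with T3 (circles, bars spanning the quartiles) and untreated (triangles). Right, the percentage of tested regions in each bin called lower and higher in TRβKO with T3. The medians climb from -0.93 to -0.05 with T3 and from -0.78 to 0.21 untreated.

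Regions bound with hormone when only TRβ is left were looked at through TRαKO with T3, whose libraries enter neither group. A peak in at least 2 of the 3 TRαKO libraries with T3 marked 2019 tested regions. Their median log2 difference between TRβKO and WT was -0.17, beside -0.39 in the other 7323. With TMM the medians were 0.11 and -0.11. TMM moved both medians by nearly the same amount, so their order under it is no separate support. Of the marked regions 19 were called higher and 86 lower in TRβKO, 0.941% and 4.26% beside 0.578% and 3.65% of all tested regions. With TMM these were 27 and 32, and with scaling within distance bins 28 and 28. In 281 of them the interval of the difference lay within 2-fold. Of the 2019, 263 lay within 5 Mb of an end, with a median of -0.69 and 34 falls (12.9%). Over 40 Mb in lay 677, with a median of 0.01 and 10 falls (1.48%). A larger share of the other regions, 2041 of 7323, lay within 5 Mb of an end. The medians of all tested regions were -0.93 within 2 Mb, -0.66 from 2 to 5 Mb and -0.05 over 40 Mb in. In these bins 6.70%, 6.42% and 1.63% of all tested regions were called lower. Marked regions within 5 Mb of an end were also stronger, with a median of 2.85 CPM in WT with T3. That of all tested regions was 1.95 CPM within 2 Mb and 1.80 CPM from 2 to 5 Mb. With scaling within distance bins the marked regions had a median of 0.12, beside 0.02 over all tested regions. The part of position in the gap between marked and other regions was not tested. Further, 803 regions were called higher in TRαKO with T3 than in untreated TRαKO. Their median between TRβKO and WT was -0.11, with 19 rises and 47 falls (2.37% and 5.85%). With TMM the median was 0.18 with 30 rises and 15 falls, and with scaling within distance bins 24 rises and 11 falls were called. The 803 regions are strong, with a median of 8.70 CPM in TRβKO with T3 beside 1.48 CPM over all tested regions. Among tested regions with a mean of at least 10 reads per library, 2.38% were called higher and 8.88% lower.

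The numbers of peaks called in single libraries overlapped between the groups. MACS listed 666, 867 and 805 peaks in TRβKO with T3, against 806, 959 and 911 in WT with T3 (exact permutation test, two-sided, p = 0.2). Restricted to peaks of -log10 q of at least 5 the order turned, with 457, 548 and 451 peaks in TRβKO against 453, 461 and 448 in WT (exact permutation test, two-sided, p = 0.6). Counting only peaks found in 2 or more replicates, TRβKO had 551 and WT 541. Of these 386 were shared, 70.1% of the TRβKO peaks and 71.3% of the WT peaks. Without TRβKO replicate 2 the TRβKO number was 380, and without WT replicate 2 the WT number was 381. Of the tested regions 20 carried a peak in all 3 TRβKO libraries and in no WT library, and 23 the reverse.

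The calls with T3 were set beside the same genotypes untreated, which use separate libraries. There 193 regions were called higher (2.07%) and 176 lower (1.88%) in TRβKO. Of the 341 falls with T3, 260 were below 0 without T3, or 76.2%, beside 58.1% of all tested regions. Of those 341, 35 were also called lower untreated and 11 were called higher. Of the 54 rises with T3, 13 were also called higher untreated and 1 lower. The 13 include all 7 mitochondrial regions, and of the 45 rises on the chromosomes 5 were called higher untreated. Depth differed between the untreated groups (5.50 M tags in TRβKO, 14.4 M in WT), and the difference between the contrasts was not tested.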

How the data were processed

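The submitters' processing notes name Bowtie2 2.3.4.1 for alignment, MACS2 2.1.1.20160309 for peaks and DiffBind, with which the authors made the counts. Per the file headers, the peak lists came from MACS 2.2.7.1, run on each library without a control, with a q-value limit of 0.05 and 1 tag kept per position. The deposited table holds raw read counts per region. The deposited peak lists give the pileup signal at the summit, p-value and q-value as -log10, and fold enrichment over the background of the same library. The genome build and the choice of regions are not given in the sources used here. Of the regions 13.1% fell within 1 kb of a gene end placed by UCB_Xtro_10.0, against 8.50 to 9.78% after shifts of the positions.

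Counts of all 18 libraries were fitted with edgeR 4.0.16 (limma 3.58.1, R 4.3.3) by the robust quasi-likelihood method, with 6 group means and the filtered tags as library size. Regions were kept by filterByExpr, tests were two-sided, and p-values were Benjamini-Hochberg adjusted over all 9342 regions. They measure the spread between replicate libraries pooled over all 6 groups, not that of the compared groups alone. Intervals are at the 95% level, and a group without reads was set to 3 reads for fold values. On simulated data for this contrast, over 9342 regions, 54% of 4-fold rises, 18% of 4-fold falls, 2% of 2-fold rises and 4% of 2-fold falls were recovered. Among changed regions at or above the median level these were 89.5%, 34.6%, 3.57% and 6.90%. The changed regions were drawn at random, and no general shift between the groups was simulated. Exact permutation tests used scipy 1.17.1 in Python 3.11.15, tables numpy 2.4.6 and pandas 2.3.3, and figures matplotlib 3.10.9.

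A region was given to the gene it overlaps or else the nearest within 10 kb, the first where several overlap. Named were up to 12 rises and 12 falls of the largest change without overlap at or above the median level of 1.69 CPM, the 12 strongest regions, every region of 9 receptor and T3 target genes, and up to 4 calls of each of 19 gene lists, or else its strongest region. The comparison, members and lists were chosen with earlier results of these data known. Alternatives were other scalings, DESeq2 1.42.0, other filters, thinned counts, fits of the 6 libraries alone and with a replicate block, and leaving out each library.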

Additional observations from a re-analysis of the deposited data

Results flagged for a closer look

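At 11 of the 79 named regions all 3 TRβKO libraries lay on one side of all 3 WT libraries with T3 and on the opposite side without T3. The difference between the conditions was not tested, and the share of all tested regions with this pattern is not given here. No overlap with T3 was a condition of naming neurl4, fam184a, LOC101733232, wdr91 and pde3a. With T3 the log2 difference of TRβKO minus WT was 2.98 at neurl4 and 2.52 at fam184a, both below 0 untreated. It was -0.23 at the leucine tRNA gene trnal-uag, -0.45 at thibz, -0.62 at LOC105945878 and -0.31 at thrb, all above 0 untreated. At kdm6b it was -0.86, at ciart -0.98, at LOC101733232 -2.36, at wdr91 -2.02 and at pde3a -1.95, and untreated these were above 0 as well. The untreated values were -1.53 at neurl4, -1.86 at fam184a, 0.96 at thibz, 1.70 at thrb and 1.17 at kdm6b.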

How the results depend on the processing

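The number of rises, 54 with edgeR, was 110 with DESeq2 and its own size factors and 30 to 51 without 1 library. The number of falls, 341, was 137 with TMM, 152 with reads in regions as library size, 132 with DESeq2 and its own size factors, 142 with only the 6 libraries, 154 with a mean of at least 10 reads, 208 after thinning, 96 with scaling in distance bins and 229 to 294 without 1 library. The fits of the 6 libraries alone, with a mean of 10 reads and after thinning test fewer regions; otherwise the cause was not tested. With a replicate block 40 rises and 131 falls were called. Same-numbered libraries correlated at -0.0233, 0.0111 and 0.0361, and different-numbered ones at -0.0416 to 0.03. Counting error at these read numbers could hide a shared origin, so the check cannot exclude 1. The pairing was not used. The median at regions with TRαKO peaks, -0.17, was 0.11 with TMM, -0.0686 with all tags, 0.0769 with reads in regions, 0.15 with DESeq2's own factors, 0.12 in distance bins and -0.19 to -0.13 without 1 library. TRβKO minus WT was -113 peaks per library (-156.5 to -56 without 1 library), but 31.3 at a -log10 q of at least 5 and 12.3 at 10. Peaks in all 3 libraries numbered 336 in TRβKO and 322 in WT, with 209 shared. Without 1 library, peaks in at least 2 numbered 380 to 551 in TRβKO and 381 to 542 in WT, with 298 to 327 shared, and the difference in the share of tags was -0.497 to -0.435 per 100. Of the 24 regions named for the largest changes, DESeq2 with its own factors called 9, all those it gave an adjusted p. The 6 libraries alone called 5 of the 6 they tested, a mean of 10 reads 5 of 5 and the replicate block 5 of 6. Thinning called 10 of 10, and leaving out 1 library 16 to 22. The block also called thibz (adjusted p = 0.0108), trnal-uag (0.0274) and dot1l (0.0294) lower and ulk1 (0.0236) higher. Regions not called changed sign as follows. At trnal-uag, MGC86483, the strongest thra region, tmcc1, spidr and adam10, in this order, TMM gave 0.0495, 0.137, 0.0843, 0.211, 0.184 and 0.119, reads in regions 0.0171, 0.104, 0.0497, 0.177, 0.151 and 0.0867 and DESeq2's own factors 0.0797, 0.171, 0.119, 0.243, 0.216 and 0.152. DESeq2's own factors also gave 0.0104 and 0.0175 at 2 thrb regions. All tags gave 0.0278 at tmcc1 and 0.00306 at spidr. Distance bins gave 0.286 at MGC86483, 0.235 at thra, 0.149 at tmcc1 and 0.0412 at spidr. Thinning gave -0.0192 at foxo6. Without 1 library the value spanned -0.0672 to 0.0907 at nrep, -0.0127 to 0.127 at foxo6, -0.335 to 0.0287 at adam10, and -0.0506 to 0.202, -0.0355 to 0.417 and -0.105 to 0.679 at the weaker thra regions. At this depth 2-fold changes of regions drawn at random were rarely recovered in simulation, so a region not called may still differ. Some strong regions were called at less than 2-fold, such as kdm6b at 1.81-fold. In 402 tested regions the 95% interval lay within 2-fold.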
